A study of Mus musculus with 6 samples.

Results

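The 10 genes described here encode proteins that the muscle fibre builds at its junction with the tendon, or that it makes more of when it is stretched. They are Col22a1, Itga7, Nrap, Xirp1, Xirp2, Ankrd1, Ankrd2, Csrp3, Tln2 and Dmd. They were chosen by symbol, and all 10 were found among the 24411 genes of the count table. Their transcripts were measured in Achilles tendons taken at 18 weeks of age from C57BL/6 mice, in 3 libraries of the genotype Scx-Cre/Piezo1 GOF and in 3 libraries labelled WT. Piezo1 is an ion channel that opens under mechanical force, and GOF stands for gain of function. The Cre recombinase of the mutant is controlled by Scx, a gene of the tendon lineage, which is not a muscle fibre gene. The labels do not say whether WT mice carried the Cre, nor that the libraries came from separate animals. The p-values therefore measure only the spread between these libraries, which may be technical.

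At the myotendinous junction the end of the muscle fibre folds into finger-like processes, and force passes from the last sarcomeres through actin-binding proteins and membrane receptors into the tendon matrix. Laminin receptors (integrins, and dystroglycan with dystrophin bound inside the fibre) sit in the folded membrane, and collagen XXII lies just outside it. A second group of proteins sits on titin, at the Z-disc or in the nucleus, and is known for transcript levels that climb when muscle is loaded or stretched.

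Total counts were between 8131527 and 12631659 in the Piezo1 GOF libraries and between 8519513 and 17180856 in the WT libraries. Levels are in CPM, a count scaled to a common library size, here after TMM (trimmed mean of M-values) scaling. Log2 fold changes have Piezo1 GOF on top and WT below and carry their standard error (SE). They were tested with the quasi-likelihood test of edgeR, adjusted by Benjamini-Hochberg over 13466 genes, at a threshold of 0.05. Piezo1 GOF and WT are given as mean ± SD with n = 3 each.

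Muscle transcripts were present in every tendon library, and they took a smaller share of the counts in each mutant library than in any WT library. A list of 29 markers of muscle content (sarcomere, calcium handling and energy genes such as Acta1, Ckm, Ttn and the fast and slow myosins, none of them among the 10 genes) took 8.23%, 3.09% and 7.47% of counts in Piezo1 GOF replicates 1 to 3 and 9.76%, 17.2% and 14.9% in WT replicates 1 to 3. The groups did not overlap, with 6.26 ± 2.78% in Piezo1 GOF and 13.98 ± 3.83% in WT (two-sided exact permutation p = 0.1, the smallest that 3 against 3 allows). The 10 junction and stretch genes together took 0.466%, 0.228% and 0.323% of counts in Piezo1 GOF and 0.515%, 1.21% and 0.863% in WT. Both sums were lowest in Piezo1 GOF replicate 2 and highest in WT replicate 2, and Piezo1 GOF replicate 1 came closest to WT replicate 1. In bulk tissue, fewer cells of a type and less RNA per cell cannot be told apart. As a check of the tissue label, 11 tenocyte markers (among them Tnmd, Scx and Col1a1) were all detected and took 2.76%, 5.63% and 3.51% of counts in Piezo1 GOF and 1.65%, 0.478% and 0.996% in WT.

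**Figure D1:**
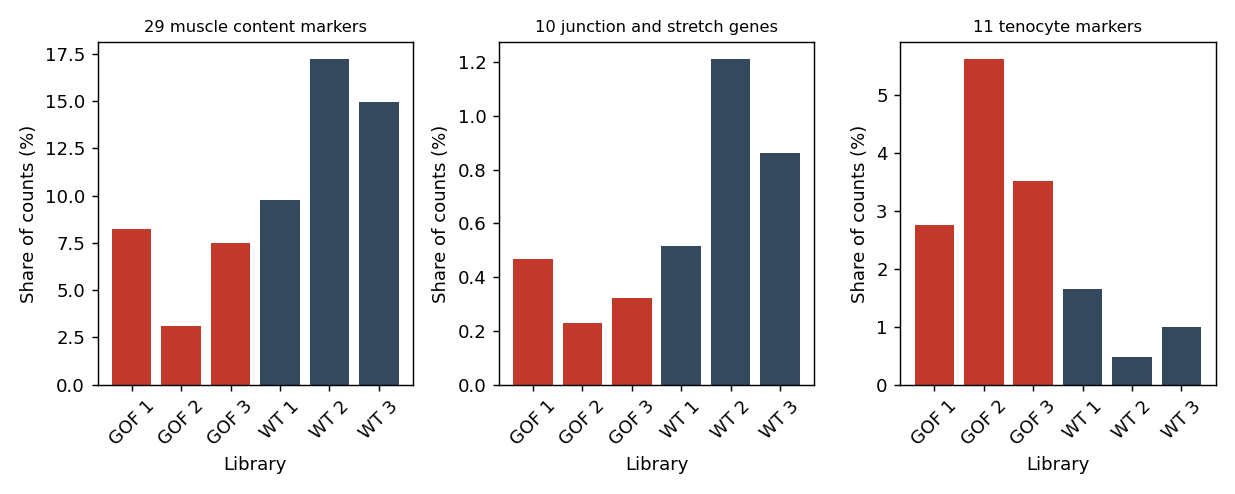
Share of all counts, in percent, taken by the muscle content markers, by the 10 junction and stretch genes and by the tenocyte markers, with 1 bar per library (Piezo1 GOF red, WT dark blue). The junction genes follow the muscle markers, from 0.228% in Piezo1 GOF replicate 2 to 1.21% in WT replicate 2, and the tenocyte markers run the other way.

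On the scale of the library, 9 of the 10 genes had lower mean levels in Piezo1 GOF tendons and the mean of Tln2 differed little between the genotypes. None of the 10 passed edgeR's test over all genes, which called 2 of 13466 genes (0.0149%), both of them higher. All 10 had passed the filter on low counts. The median log2 fold change of the 10 was -1.23, beside -0.92 for the 29 muscle content markers and -0.0045 for all genes tested, of which 50.3% had a negative value. At an unadjusted p under 0.05, 7 of the 10 were lower, beside 9.59% of all genes. For 3 of the 10 (Col22a1, Itga7 and Dmd) all Piezo1 GOF libraries lay under all WT libraries, as they did for 12.1% of all genes and for 10 of the 29 muscle content markers. DESeq2, run as an alternative, called 5 of the 10 lower (Col22a1, Itga7, Nrap, Xirp2 and Dmd), beside 2.51% of the 14754 genes it tested, and limma voom called 0 of the 10, beside 0.141% of genes called lower. Over all alternatives the adjusted p of those 5 lay between 0.00477 (Xirp2, DESeq2) and 0.936 (Nrap, with muscle content as a covariate).

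The first genes belong to the junction's outer face and membrane. Col22a1 encodes the chain of collagen XXII, a collagen of tissue junctions that in mouse muscle is known to lie at the myotendinous junction (chromosome 15, 71795795 to 72034227, minus strand, mm10). It was at 75.8, 28.99 and 94.7 CPM in Piezo1 GOF replicates 1 to 3 and at 101, 148 and 278 CPM in WT replicates 1 to 3. The groups did not overlap, but the highest mutant library and the lowest WT library lay close together, and WT replicate 3 stood well above the others. The log2 fold change was -1.40 ± 0.48 (SE; edgeR adjusted p = 0.186; DESeq2 adjusted p = 0.0385), and without WT replicate 3 it was -0.91 (edgeR adjusted p = 0.422).

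Itga7 encodes the integrin α7 chain, the laminin receptor of muscle fibres, which is also made in smooth muscle (chromosome 10, 128933818 to 128958282, plus strand). It was at 145, 67.7 and 141 CPM in Piezo1 GOF and at 204, 367 and 266 CPM in WT. All mutant libraries were below all WT libraries, with a log2 fold change of -1.24 ± 0.35 (edgeR adjusted p = 0.148; DESeq2 adjusted p = 0.0142). Dmd encodes dystrophin, which ties cortical actin to the laminin receptor dystroglycan (chromosome X, 82948870 to 85206141, plus strand). It was at 245, 154 and 176 CPM in Piezo1 GOF and at 286, 434 and 411 CPM in WT. Again the groups did not overlap, and the log2 fold change was -0.98 ± 0.29 (edgeR adjusted p = 0.158; DESeq2 adjusted p = 0.0168). Dmd has several promoters and short products in other cell types, Schwann cells among them, and counts per gene do not separate them.

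The linkers between actin and the membrane ranged from Nrap and Xirp2, the most abundant of the 10 per kilobase, to Tln2, one of the least abundant. Nrap, the nebulin-related anchoring protein of the terminal actin filaments (chromosome 19, 56320035 to 56390037, minus strand), was at 1595, 426 and 857 CPM in Piezo1 GOF and at 1512, 4243 and 2721 CPM in WT. Piezo1 GOF replicate 1 lay above WT replicate 1, so the groups overlapped (log2 fold change -1.56 ± 0.58; edgeR adjusted p = 0.202; DESeq2 adjusted p = 0.0215). Xirp2 encodes a large Xin-repeat protein that binds actin at cell junctions and Z-discs (chromosome 2, 67446002 to 67526614, plus strand). It was at 1681, 938 and 1289.7 CPM in Piezo1 GOF and at 1601, 6108 and 4754 CPM in WT, where replicates 2 and 3 stood apart from the other 4 libraries (-1.67 ± 0.55; edgeR adjusted p = 0.176; DESeq2 adjusted p = 0.00477). Its paralogue Xirp1, which encodes Xin (chromosome 9, 120013755 to 120023598, minus strand), was at 293, 50.4 and 107 CPM in Piezo1 GOF and at 245, 998 and 393 CPM in WT. WT replicate 2 alone was more than any other library by a wide margin, and the log2 fold change was -1.86 ± 0.70 (edgeR adjusted p = 0.205; DESeq2 adjusted p = 0.239). It was -1.09 without WT replicate 2 and -2.80 without Piezo1 GOF replicate 1.

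Tln2 encodes talin-2, the talin of mature striated muscle that couples integrins to actin and that other tissues also make (chromosome 9, 67217087 to 67559703, minus strand). It was at 265, 182 and 227 CPM in Piezo1 GOF and at 187, 250.4 and 227 CPM in WT. The groups overlapped completely, at 224 ± 41.5 CPM in Piezo1 GOF and 221 ± 32.1 CPM in WT, and the log2 fold change was 0.02 ± 0.25 (edgeR adjusted p = 0.973). Its sign was negative without WT replicate 1 (-0.07) and without Piezo1 GOF replicate 1 (-0.12).

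Of the stretch-responsive genes, Ankrd2 and Csrp3 scattered widely within the mutant group. Ankrd2, an ankyrin-repeat protein that binds titin and is richer in slow fibres (chromosome 19, 42036000 to 42045110, plus strand), was at 232, 67.6 and 45.4 CPM in Piezo1 GOF and at 231, 310.2 and 264 CPM in WT. Piezo1 GOF replicate 1 was level with WT replicate 1 while the other 2 mutant libraries were far below (-1.22 ± 0.54; edgeR adjusted p = 0.253). Csrp3 encodes muscle LIM protein, a Z-disc and nuclear protein that also marks slow fibres (chromosome 7, 48830398 to 48848033, minus strand). It was at 374, 136 and 66.9 CPM in Piezo1 GOF and at 334, 411 and 257 CPM in WT, with replicate 1 of the mutant inside the WT range (-0.80 ± 0.55; edgeR adjusted p = 0.439). Without Piezo1 GOF replicate 1 the log2 fold changes were -2.25 for Ankrd2 and -1.72 for Csrp3, with adjusted p = 0.0842 and 0.117 by edgeR. Without Piezo1 GOF replicate 3 they were -0.82 for Ankrd2 and -0.37 for Csrp3 (edgeR adjusted p = 0.459 and 0.723).

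Ankrd1, the paralogue of Ankrd2 that is known as a target of the YAP and TEAD factors as well as of stretch (chromosome 19, 36111961 to 36120099, minus strand), had the fewest counts of the 10. It was at 25.1, 19.2 and 16.3 CPM in Piezo1 GOF and at 15.5, 42.4 and 65.0 CPM in WT. The 3 mutant libraries were close together and WT replicate 1 was below all of them, so the groups overlapped (-1.02 ± 0.45; edgeR adjusted p = 0.250). Without WT replicate 1 it was -1.39 (edgeR adjusted p = 0.0528), and without WT replicate 3 -0.53 (edgeR adjusted p = 0.580). Of the annotated genes that overlap any of the 10 and stand in the table, the most abundant, which overlaps Xirp1, held 523 counts over the 6 libraries.

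**Figure D2:**
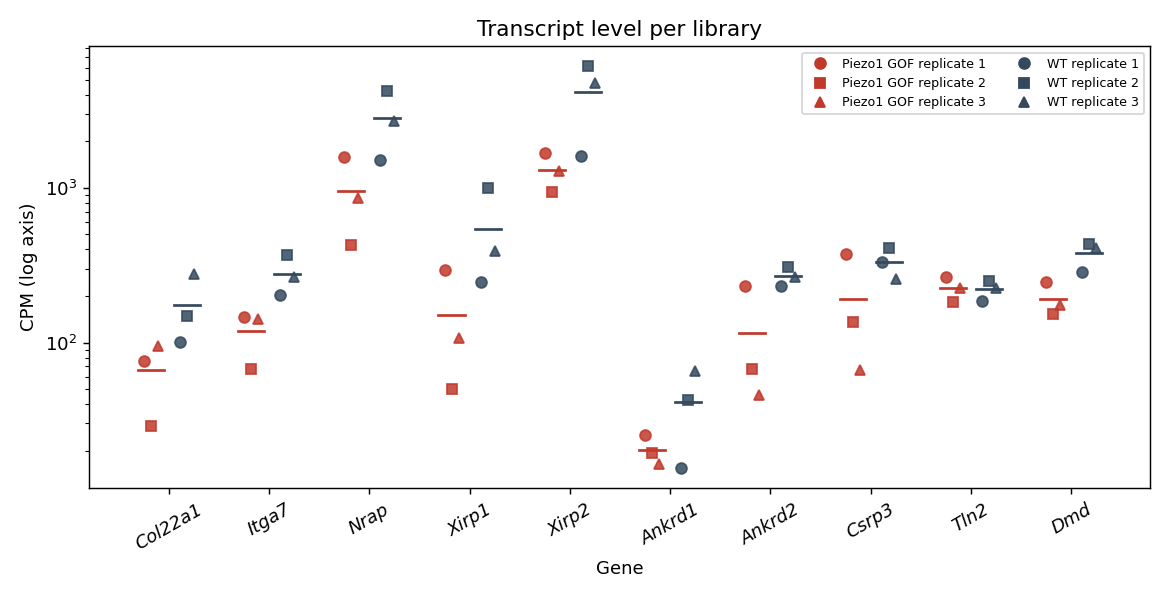
Level of each gene in CPM on a log axis, with 1 symbol per library (Piezo1 GOF red and on the left, WT dark blue and on the right) and lines at the group means. Col22a1, Itga7 and Dmd show no overlap between the genotypes, Tln2 sits at 182 to 265 CPM in Piezo1 GOF and at 187 to 250.4 CPM in WT, and Ankrd2 and Csrp3 have 1 mutant library at the WT level.

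The stretches upstream of the start of 4 of these genes are shown because regulators of muscle and stretch genes are often described by their short recognition motifs in such windows. The 250 bases before the RefSeq start were read from the GRCm38.p6 table (the assembly of mm10) for 6 of the 10 genes, in 8 windows. They were searched for CATTCC (the TEAD or MCAT motif), CAGCTG (an E-box), the MEF2 motif and the CArG box on both strands and for TATAAA on the gene's own strand. The motifs did not overlap one another, and capitals mark each match.
Ankrd1: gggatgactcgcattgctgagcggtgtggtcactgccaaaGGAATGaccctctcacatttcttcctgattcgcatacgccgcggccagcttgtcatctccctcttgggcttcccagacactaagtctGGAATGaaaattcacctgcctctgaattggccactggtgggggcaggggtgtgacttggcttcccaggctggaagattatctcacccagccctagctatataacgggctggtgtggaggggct
Xirp2: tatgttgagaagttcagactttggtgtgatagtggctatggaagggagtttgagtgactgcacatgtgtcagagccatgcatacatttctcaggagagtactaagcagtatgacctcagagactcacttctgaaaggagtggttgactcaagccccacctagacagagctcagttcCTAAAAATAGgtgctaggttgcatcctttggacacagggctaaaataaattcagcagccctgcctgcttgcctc
Nrap: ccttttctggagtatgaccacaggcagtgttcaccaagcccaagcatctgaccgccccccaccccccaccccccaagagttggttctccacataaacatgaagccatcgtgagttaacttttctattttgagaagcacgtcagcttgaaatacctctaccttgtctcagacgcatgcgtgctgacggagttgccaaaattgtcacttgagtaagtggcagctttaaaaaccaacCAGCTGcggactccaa
Ankrd2: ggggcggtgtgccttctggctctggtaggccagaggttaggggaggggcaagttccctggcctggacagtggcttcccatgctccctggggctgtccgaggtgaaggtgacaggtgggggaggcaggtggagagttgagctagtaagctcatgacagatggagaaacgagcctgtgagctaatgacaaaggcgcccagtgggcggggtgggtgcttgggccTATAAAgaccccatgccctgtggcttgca
Each runs 5′ to 3′ on the gene's strand. Ankrd1 lies at chr19:36119845-36120094 (minus strand), Xirp2 at chr2:67445752-67446001 (plus), Nrap at chr19:56390039-56390288 (minus) and Ankrd2 at chr19:42035777-42036026 (plus). The RefSeq and GENCODE starts differ for some genes. The Ankrd1 window lies inside the GENCODE span given above for the gene, and the end of the Ankrd2 window reaches into its GENCODE span.

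The Ankrd1 window held CATTCC on the opposite strand at 2 places, which begin 210 and 123 bases before the RefSeq start, and none of the other 7 windows held it. That motif was in 12.6% of all 32851 windows of the table. The Xirp2 window held 1 MEF2 motif, 74 bases before the start (2.92% of all windows), Nrap 1 CAGCTG (13.001%) and Ankrd2 1 TATAAA (7.59%). The first of 2 Dmd windows held a MEF2 motif and a CArG box (1.47%), and neither Csrp3 window held any of the motifs. These matches describe the letters of the windows and do not show that a factor was bound.

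Per kilobase of annotated exon, Nrap, the Xirp genes, Ankrd2 and Csrp3 had higher mean levels than the membrane and matrix genes Itga7, Dmd and Col22a1. In order of the WT mean, Nrap was at 174 ± 107 CPM per kb in Piezo1 GOF and 513 ± 249 in WT, Xirp2 at 109 ± 31.1 in Piezo1 GOF and 347 ± 193 in WT, and Ankrd2 at 101 ± 89.6 in Piezo1 GOF and 236 ± 34.9 in WT. Csrp3 followed at 72.1 ± 60.4 CPM per kb in Piezo1 GOF and 125 ± 28.7 in WT, and Xirp1 at 25.7 ± 21.7 in Piezo1 GOF and 93.4 ± 68.3 in WT. Itga7 stood at 14.6 ± 5.40 CPM per kb in Piezo1 GOF and 34.5 ± 10.1 in WT. The last 4 were at 6.995 to 12.2 CPM per kb in Piezo1 GOF and 12.1 to 19.1 in WT, namely Col22a1, Dmd, Ankrd1 and Tln2. Among neighbours in the WT order, Ankrd2 and Csrp3 differed in WT by more than the sum of their SDs, and the other neighbours did not. Lengths are the union of all annotated exons, which lowers the value of genes with many isoforms, such as Dmd.

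To set the 10 genes beside the muscle content of each library, the same counts were also tested with the library size replaced by the sum of the 29 muscle content markers. On this scale the median log2 fold change of the 10 was 0.02, with 5 negative and 5 positive values (3.55% of all genes were negative), beside 0.23 for the muscle content markers themselves and 1.45 for all genes tested. None of the 10 passed (edgeR adjusted p 0.110 to 0.980; 1, Tln2, had an unadjusted p under 0.05), while 15.5% of all genes were called, 2083 higher and 10 lower. That count of 2093 genes lay between 39 without WT replicate 3 and 4767 without WT replicate 1 when a library was left out, and moved by over 1.5 times without any 1 of the 6 libraries. The SE of each of the 10 was between 0.68 and 0.74 on this scale. Differences of that size or smaller cannot be judged from it, and even Tln2, at 1.42, did not pass. In every library Ttn was the largest part of the sum that sets this scale. It held 30893.5, 10307 and 27820 of 87014, 28048 and 69955 CPM in Piezo1 GOF replicates 1 to 3. In WT replicates 1 to 3 it held 28110.5, 82238 and 81744 of 89298.5, 189230 and 166790 CPM. The full list without Ttn was not run as the scale.

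Per 1000 muscle marker counts, Col22a1 had 0.871, 1.03 and 1.35 counts in Piezo1 GOF and 1.14, 0.783 and 1.67 in WT, a log2 fold change of -0.14 ± 0.70. Itga7 had 1.67, 2.41 and 2.02 counts in Piezo1 GOF and 2.29, 1.94 and 1.60 in WT (0.07 ± 0.71). For both, which did not overlap on the library scale, the groups were interleaved on the muscle scale. Nrap had 18.3, 15.2 and 12.3 counts in Piezo1 GOF and 16.9, 22.4 and 16.3 in WT (-0.28 ± 0.69), and Xirp2 had 19.3, 33.4 and 18.4 in Piezo1 GOF and 17.9, 32.3 and 28.5 in WT (-0.14 ± 0.68). Xirp1 had the most negative value of the 10, at 3.37, 1.80 and 1.53 counts in Piezo1 GOF and 2.74, 5.27 and 2.35 in WT (-0.63 ± 0.71). Its groups overlapped through Piezo1 GOF replicate 1.

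Among the stretch genes, Ankrd2 had 2.67, 2.41 and 0.650 counts per 1000 muscle marker counts in Piezo1 GOF and 2.59, 1.64 and 1.59 in WT (-0.02 ± 0.71). Csrp3 had 4.30, 4.86 and 0.956 counts in Piezo1 GOF and 3.74, 2.17 and 1.54 in WT (0.44 ± 0.71). Piezo1 GOF replicate 3 was the lowest of all 6 libraries for both, although it was not the mutant library with the least muscle. The slow-to-fast ratio was also lowest in that library. The ratio of 6 slow-fibre to 10 fast-fibre marker counts was 0.549, 0.796 and 0.278 in Piezo1 GOF replicates 1 to 3 and 0.705, 0.696 and 1.56 in WT. The highest ratio was in WT replicate 3, which had the lowest WT values of both Ankrd2 and Csrp3 on the muscle scale. The part of fibre type in the Ankrd2 and Csrp3 values was not tested. Ankrd1 had 0.288, 0.683 and 0.233 counts in Piezo1 GOF and 0.173, 0.224 and 0.390 in WT (0.61 ± 0.74), highest in the mutant library with the least muscle.

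Tln2 had the highest log2 fold change of the 10 on the muscle scale. It had 3.04, 6.48 and 3.24 counts per 1000 muscle marker counts in Piezo1 GOF and 2.09, 1.32 and 1.36 in WT, and it was the only 1 of the 10 whose groups did not overlap on this scale, as was also so, in the same direction, for 45.1% of all genes. Its log2 fold change of 1.42 ± 0.72 (edgeR adjusted p = 0.110) lay next to the median of all genes, 1.45, and above that of the muscle markers, 0.23. That closeness was largely set by the library scale, where Tln2 was at 0.02 and the median of all genes at -0.0045. Changing the scale multiplies all genes of a library by the same factor. Dmd had 2.82, 5.48 and 2.52 counts in Piezo1 GOF and 3.20, 2.29 and 2.46 in WT (0.44 ± 0.71). Its value lay between the medians of the muscle markers and of all genes on this scale, as did those of Csrp3 and Ankrd1. Dmd also lay within its SE of the median of the muscle markers.

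**Figure D3:**
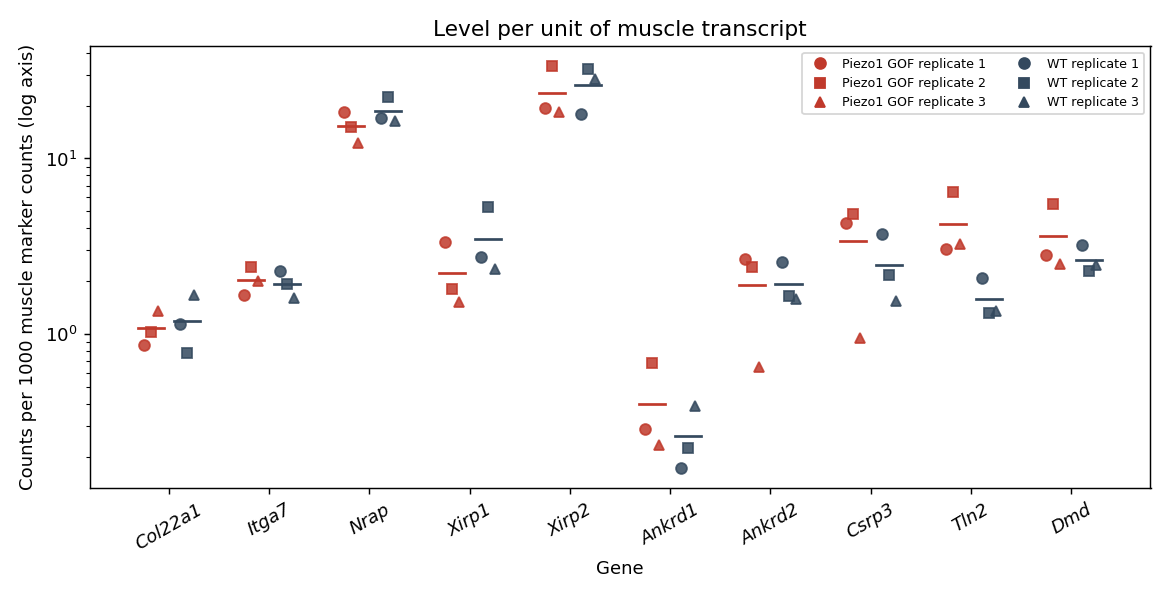
Counts of each gene per 1000 counts of the muscle content markers, on a log axis, with 1 symbol per library (Piezo1 GOF red and on the left, WT dark blue and on the right) and lines at the group means. The groups overlap for 9 genes, and for Tln2 the mutant libraries (3.04 to 6.48) lie above the WT libraries (1.32 to 2.09).

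**Figure D4:**
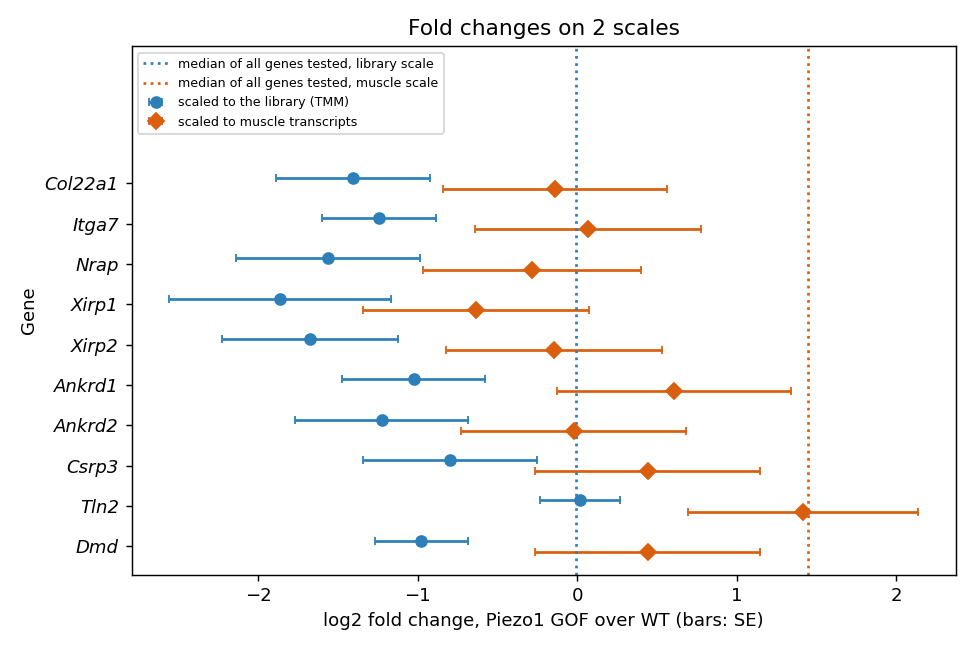
Log2 fold change of Piezo1 GOF over WT with its SE, scaled to the library (circles) and to muscle transcripts (diamonds), with dotted lines at the median of all genes tested on each scale. On the library scale 9 genes lie below the median of all genes, and on the muscle scale the same 9 lie between -0.63 and 0.61 while Tln2, at 1.42, is next to the median of all genes, 1.45.

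With the muscle score of each library (the mean log2 CPM of the 29 markers) as a covariate in place of that scaling, the median log2 fold change of the 10 was -0.52, and none of the 10 passed by edgeR or had an unadjusted p under 0.05. In that fit 0 of 13466 genes passed. The score was 8.79 to 10.23 in Piezo1 GOF and 10.19 to 11.05 in WT, so it ran largely with genotype. The fit could therefore separate score and genotype only in part. There Tln2 was at 0.37 and Xirp2 furthest below at -0.79 (edgeR adjusted p = 0.881 and 0.898), and the muscle markers themselves were at -0.01.

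Most other genes of the attachment complexes and of the Z-disc had negative log2 fold changes on the library scale, too. Of 27 further genes of the integrin, dystrophin and laminin attachment complexes, 23 had negative and 4 positive log2 fold changes, with a median of -0.49, and 0 passed by edgeR over all genes (11 lower at an unadjusted p under 0.05). Over all genes tested, 50.3% had a negative value and 9.59% were lower at that unadjusted p. Beside 882 of the 14754 genes it tested, in either direction, DESeq2 called 7 of the 27. Among those with the smallest p were Dtna (α-dystrobrevin, a partner of dystrophin, -1.29 ± 0.28, edgeR adjusted p = 0.104) and Cav3 (caveolin-3, a protein of muscle membrane caveolae, -0.93 ± 0.29). Dtna was at 28.8 ± 10.2 CPM in Piezo1 GOF and 70.5 ± 7.07 CPM in WT. The 4 positive values belonged to Parva (0.56 ± 0.29), Ilk (0.11 ± 0.29), Utrn (0.09 ± 0.28) and Sntb1 (0.11 ± 0.40), and Itgb1, the β1 partner of integrin α7, was at -0.16 ± 0.30. On the muscle scale the median of the 27 was 0.74, with 4 negative and 23 positive values, where 3.55% of all genes were negative. Parva, which encodes the actin-binding α-parvin, was the 1 attachment gene called higher on the muscle scale (1.96; edgeR adjusted p = 0.0496), where 15.5% of all genes were called. The call was lost in 7 of 10 alternatives, namely without WT replicate 2, WT replicate 3, Piezo1 GOF replicate 2 or Piezo1 GOF replicate 3 (adjusted p = 0.0743 to 0.365), with the geometric mean of the muscle list (0.0974), with the fast-fibre sum (0.328) and with a replicate block (0.468).

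Of 31 further Z-disc and stretch-response genes, 30 had negative and 1 a positive log2 fold change, with a median of -1.20, close to that of the 10 genes. Over all genes tested, 50.3% had a negative value. By edgeR 0 of the 31 passed over all genes (21 lower at an unadjusted p under 0.05, beside 9.59% of all genes). Beside 882 of the 14754 genes it tested, in either direction, DESeq2 called 13 of the 31. The 4 with the smallest p were Pdlim5 (a PDZ and LIM protein of the Z-disc, -1.20 ± 0.27, edgeR adjusted p = 0.106), Smpx (a small stretch-responsive muscle protein, -1.35 ± 0.34), Murc (also called Cavin4, a caveola protein of muscle, -1.39 ± 0.35) and Trim63 (the ubiquitin ligase MuRF1, -2.18 ± 0.59). For Trim63 the log2 fold change was -1.16 without WT replicate 2 (edgeR adjusted p = 0.282) and -2.55 without WT replicate 1 (edgeR adjusted p = 0.0486). Smpx was at 76.7 ± 34.4 CPM in Piezo1 GOF and 196 ± 35.6 CPM in WT. Ankrd23, the third ankyrin-repeat paralogue beside Ankrd1 and Ankrd2, was at 305 ± 147 CPM in Piezo1 GOF and 1135 ± 605 CPM in WT (-1.90 ± 0.53; edgeR adjusted p = 0.144). On the muscle scale the median of the 31 was 0.08, with 13 negative and 18 positive values (3.55% of all genes were negative). There 0 of the 31 passed by edgeR (0 at an unadjusted p under 0.05), where 15.5% of all genes were called.

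The slow-fibre markers had a more negative median log2 fold change than the fast-fibre markers, but the slow-to-fast ratio overlapped between the genotypes. The ratio was 0.278 to 0.796 in Piezo1 GOF and 0.696 to 1.56 in WT. All 6 slow-fibre markers had negative log2 fold changes and groups without overlap, with a median of -1.47. Over all genes tested, 50.3% had a negative value and 12.1% had groups without overlap in that direction. The 10 fast-fibre markers had a median of -0.56, and the groups of 9 of them overlapped. None of the 16 passed by edgeR over all genes (6 slow-fibre and 0 fast-fibre markers were lower at an unadjusted p under 0.05, beside 9.59% of all genes). DESeq2 called 8 of the whole list of 29, beside 882 of the 14754 genes it tested, in either direction. The difference between the fibre types was not tested.

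Cells other than muscle fibres can also hold some of these transcripts. The 10 smooth muscle and pericyte markers summed to 904 to 1317 CPM in Piezo1 GOF and to 1380.2 to 4893 CPM in WT, where WT replicate 1 held the highest sum. The 10 Schwann cell markers summed to 481 to 629.96 CPM in Piezo1 GOF and to 183 to 3808 CPM in WT, again highest in WT replicate 1. For Itga7 and Dmd, which those cells also make, WT replicate 1 was the lowest WT library in CPM. Per 1000 muscle marker counts it was the highest WT library for both, at 2.29 for Itga7 and 3.20 for Dmd. Without it the log2 fold changes on the library scale were -1.40 and -1.12. The part of smooth muscle and Schwann cells in the Itga7 and Dmd values was not tested. The 7 satellite cell markers summed to 51.9 to 75.7 CPM in Piezo1 GOF and 88.3 to 151 CPM in WT. Chodl was the largest part of that sum, at 41.0 ± 20.8 CPM in Piezo1 GOF and 70.8 ± 21.1 CPM in WT. Of the 6 that were tested, 5 had negative log2 fold changes and 1 (Vcam1, 0.22) a positive one, and 0 passed by edgeR. Over all genes tested, 50.3% had a negative value. Pax7, which defines satellite cells, was at a low level, 0.787 ± 0.444 CPM in Piezo1 GOF and 2.58 ± 0.904 CPM in WT. No gene of these 3 lists was at 0 in all libraries.

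For Col22a1, Xirp2 and Ankrd1, the 3 genes whose log2 CPM ran most like theirs over the 6 libraries were looked up. Among 10623 genes with a mean of at least 5 CPM, those closest to Col22a1 were Ifngr2, Acad11 and Thsd7b (Pearson r between 0.993 and 0.995 over 6 libraries). Those closest to Xirp2 were Usp47, Kansl2 and Obsl1, a gene for an obscurin-like cytoskeletal protein (r between 0.993 and 0.995), and those closest to Ankrd1 were Snupn, Kansl1l and Elp3 (r between 0.988 and 0.992). For the 29 muscle content markers the median r was 0.779 with Col22a1, 0.760 with Xirp2 and 0.518 with Ankrd1. The 6 points of each comparison share their libraries and scaling, and these genes are the closest of very many, so the values are given as description.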

How the data were processed

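Per the labels' protocols, total RNA of the Achilles tendon was made into libraries with a RamDA-seq kit. The submitters' processing notes name the tools STAR, RSEM, edgeR and bcl2fastq and the build mm10. Their versions, the annotation and whether counting used strand are not stated there. The authors deposited each estimated count (expected count) per gene without scaling, a unit read from values that are partly not whole numbers. These were rounded, filtered with filterByExpr of edgeR (minimum count 10, 13466 genes left) and scaled by TMM (factors 0.897 to 1.10). The comparison of Piezo1 GOF with WT used the edgeR quasi-likelihood test without covariates (common dispersion 0.113). The muscle-scaled fit used the summed muscle marker counts (279604 to 2962627 per library) as library size.

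Libraries of a genotype differed beyond sampling noise (chi-square per degree of freedom 38.7 to 133). The genes and lists (161 entries, 1 found under a synonym) were chosen with earlier results of these data known. Besides the 10 genes, the text names the 4 genes with the smallest p of the attachment and Z-disc lists, genes of these past 0.05 (some genes are not reported here), and the 3 genes most correlated with Col22a1, Ankrd1 and Xirp2. The other genes with positive values, Itgb1, Ankrd23, Pax7, Chodl and Vcam1 were chosen after their values were seen. The alternatives were other scalings, no filter, DESeq2, limma voom, a replicate block, a muscle covariate and leaving out each library, with slow-fibre scaling added after seeing the data. Coordinates are from GENCODE on mm10. The fit was tested on simulated data. Software was R 4.3.3 (edgeR 4.0.16, limma 3.58.1, DESeq2 1.42.0) and Python 3.11.15 (pandas 2.3.3, scipy 1.17.1, numpy 2.4.6, matplotlib 3.10.9).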

Additional observations from a re-analysis of the deposited data

How the results depend on the processing

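On the library scale, 9 of the 10 genes kept a negative log2 fold change under every alternative run. Tln2 was at 0.02 and turned negative when a library was left out in some cases (-0.12 to 0.18). By edgeR and voom 0 of the 10 passed under each alternative, and DESeq2 called 5. Their median lay between -1.61 and -0.95 when a library was left out and was -0.52 with the muscle score as covariate. The count over all genes was 2 as reported, 165 without the filter on low counts, 882 by DESeq2, 116 by voom and 0 with the muscle covariate, and between 0 and 228 when a library was left out. The replicate numbers gave no sign of pairing between libraries (correlations of same-numbered deviations -0.21, -0.14 and -0.05). With 3 libraries a genotype that differ widely in muscle content, this cannot exclude a pairing. With a replicate block 0 genes passed, the median of the 10 was -1.36 on the library scale and -0.01 on the muscle scale, and 0 of the 10 passed on either.

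On the muscle scale Tln2, Csrp3 and Dmd stayed positive and Xirp1 negative under each alternative run, and the signs of the other 6 depended on the muscle genes that set the scale or on the library left out. With the geometric mean of the list the median of the 10 was -0.37 and Itga7 was at -0.33, and with the fast-fibre sum the median was -0.30 and Itga7 at -0.29. With the slow-fibre sum the median was 0.54 and 1 of them passed (Tln2, 1.88; edgeR adjusted p = 0.00758), where 10254 of 13466 genes were called. There Col22a1 (0.48), Nrap (0.21), Xirp2 (0.32) and Ankrd2 (0.35) were positive. When a library was left out, Col22a1 lay between -0.37 and 0.18, Itga7 between -0.073 and 0.20, Xirp2 between -0.47 and 0.032, Ankrd1 between -0.011 and 1.01, and Ankrd2 between -0.34 and 0.39. The cause of these shifts was not tested. The count of all genes called on this scale was 2093 as reported, 644 with the geometric mean, 51 with the fast-fibre sum and 0 with a replicate block. The muscle share was lower in Piezo1 GOF under each alternative. The lowest count of any of the 10 in a library was 144 (Ankrd1), and there were 3 libraries a genotype.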
